A study of Mus musculus with 12 samples.

Results

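*G6pdx* is a gene of the oxidative arm of the pentose phosphate pathway. It is described here together with its retrocopy *G6pd2* and with 8 further genes of the pathway and of NADPH production, in livers with and without hepatocyte *Marchf6*. The 10 genes are *G6pdx*, *G6pd2*, *Pgls*, *Pgd*, *H6pd*, *Tkt*, *Taldo1*, *Rpia*, *Me1* and *Idh1*, out of 54232 genes in the count table. They were taken by name. *G6pdx* was chosen by its higher count in LKO than in WT livers, which was already known, so its levels and fold change are given as a description without a p-value. The other genes were listed for their function, with earlier results of these data known. All 10 were among the 17509 genes that passed the filter on low counts, which asked for more than 2 reads of a gene in 6 livers or more. *G6pd2* passed it only through the LKO livers, since 2 of 6 WT livers had more than 2 reads of it.

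The livers came from male C57Bl/6J littermates of 10 weeks on a chow diet, fasted for 4 h, with 1 mRNA library per mouse. WT mice (n = 6) were *Marchf6* fl/fl AlbuminCre- and LKO mice (n = 6) were *Marchf6* fl/fl AlbuminCre+, so both groups carried the floxed allele and only the LKO mice carried Cre, driven by the albumin promoter of hepatocytes. *Marchf6* encodes a ubiquitin ligase of the endoplasmic reticulum. Loss of the gene and presence of Cre cannot be told apart in this design, nor can genotype and library order, because every WT library was numbered before the LKO libraries. The whole liver was sequenced, so cells other than hepatocytes, which keep *Marchf6*, contributed RNA.

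The pentose phosphate pathway branches from glycolysis at glucose 6-phosphate. Its oxidative arm, to which the lactonase PGLS and 6-phosphogluconate dehydrogenase (PGD) belong, reduces NADP+ to NADPH and ends at ribulose 5-phosphate. The non-oxidative arm, with the isomerase RPIA, transketolase (TKT) and transaldolase (TALDO1), interconverts sugar phosphates and returns them to glycolysis. Malic enzyme (ME1) and cytosolic isocitrate dehydrogenase (IDH1) make NADPH in the cytosol by other reactions, and H6PD carries out the first steps of the oxidative arm inside the endoplasmic reticulum. In liver this NADPH is known to be used for the synthesis of fatty acids and cholesterol and for the reduction of glutathione, and hepatic ME1 is known to respond to feeding.

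The count table held 14860414 to 22111926 reads for a liver, of which the 20 most abundant genes took 23.65% to 25.97%. Values are given as CPM, the reads of a gene scaled to the size of its library with TMM normalisation. The reads carry no molecular identifiers, so intervals from reads cover counting error only. The targeted gene *Marchf6* (ENSMUSG00000039100, chr15:31455891-31531053) averaged 240.7 ± 8.36 CPM in WT and 225.7 ± 16.5 CPM in LKO livers (± SD, 6 livers each, as for all means below). Its log2 fold change was −0.09 (edgeR, adjusted p = 0.585), and this count over all exons of the gene does not check the loss of 1 exon, so the genotypes were taken from the labels. All 12 hepatocyte markers were measured, led by *Alb* with 76080 ± 7053 CPM in WT and 66980 ± 2145 CPM in LKO livers and *Apoa1* with 7879 ± 474.9 and 7749 ± 722.3 CPM. The summed level of 12 Kupffer cell markers ranged from 160.6 to 213.6 CPM in WT and from 187.5 to 329.7 CPM in LKO livers, and all 12 had a log2 fold change above 0.

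*G6pdx* (ENSMUSG00000031400) lies on the minus strand of chromosome X at chrX:74409483-74429194 in GRCm38, with 13 exons. It had 3.46 CPM in the lowest WT liver, a median of 7.58 CPM and 18.9 CPM in the highest. In LKO livers the lowest value was 42.0 CPM, the median 57.8 CPM and the highest 65.9 CPM. Every LKO liver was thus above every WT liver, and the highest WT liver was replicate 3. These levels rested on 66 to 297 reads in a WT liver and on 901 to 1417 in an LKO liver. The means were 9.19 ± 5.49 CPM and 56.3 ± 8.17 CPM. The log2 fold change was 2.62 (standard error 0.293), or 6.13-fold with a 95% interval from 3.97 to 9.46. Among the 17509 genes tested this was rank 10 by log2 fold change. Because *G6pdx* was chosen for this difference, nothing is read from that rank. In what follows, a gene was called at an adjusted p under 0.05.

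**Figure D1:**
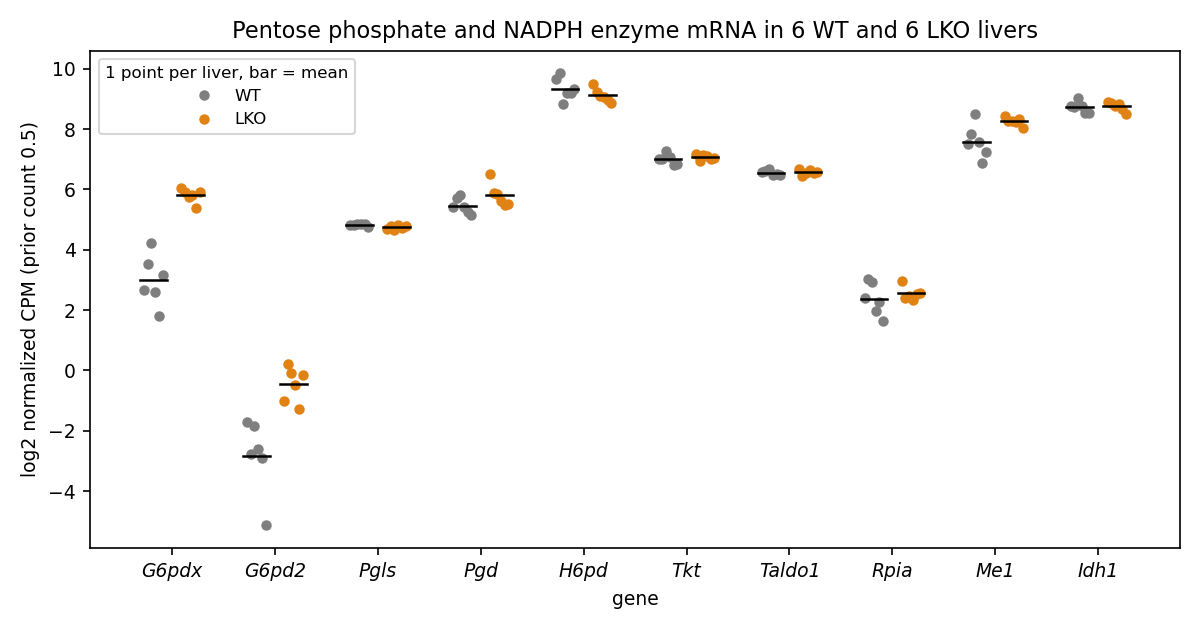
Log2 normalised CPM (vertical axis, prior count 0.5) of the 10 genes (horizontal axis) in 6 WT (grey) and 6 LKO (orange) livers, with 1 point per liver and a bar at the group mean. *G6pdx* and *G6pd2* are the genes whose groups do not overlap, and the *G6pd2* points rest on 0 to 17 reads per liver.

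Of the 10 genes, 2 were called, *G6pdx* and *G6pd2*, both higher in LKO livers, where 0.274% of all genes tested were called higher and 0.428% in either direction. Because *G6pdx* was chosen for this difference, and *G6pd2* shares sequence with it and passed the filter through the LKO livers alone, nothing is read from that count. At an unadjusted p under 0.05 there were 4 of the 10 genes, *Pgd* and *Me1* being the other two, against 11.7% of all genes tested. The groups did not overlap for *G6pdx* and *G6pd2*, against 0.748% of all genes tested with every LKO liver above every WT liver. Both of these counts include *G6pdx* and *G6pd2*, so nothing is read from them either.

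**Figure D2:**
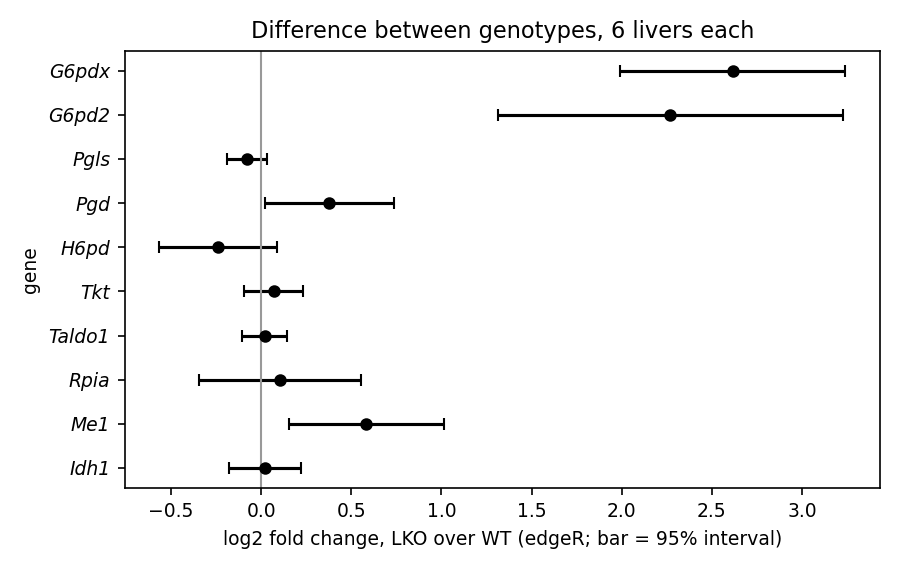
Log2 fold change of LKO over WT livers (horizontal axis) for the 10 genes (vertical axis), from the edgeR fit over all genes tested, with 95% intervals as bars and 6 livers per genotype. *G6pdx* at 2.62 and *G6pd2* at 2.27 lie apart from the other genes, which range from −0.24 for *H6pd* to 0.58 for *Me1*.

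*G6pd2* (ENSMUSG00000089992) is an intronless retrocopy of *G6pdx* with an open reading frame, on the plus strand at chr5:61808816-61811163. It was examined as a check on how reads were assigned to *G6pdx*. In GENCODE M21 the *G6pdx* transcript used has 2652 nt in 13 exons and the *G6pd2* transcript 2348 nt in 1 exon. Of 2312 aligned nt, 2174 were identical (94.03%), and in the coding part 79 of 1542 aligned nt differed. The longest run shared exactly was 105 nt. The 90 coding nt in which the genes differed most are shown first, because a read from there can be assigned to 1 gene. Sequences read 5′ to 3′ on the strand of the gene, and capitals mark the 10 positions that differ.
*G6pdx*, exon 10, chrX:74410836-74410925: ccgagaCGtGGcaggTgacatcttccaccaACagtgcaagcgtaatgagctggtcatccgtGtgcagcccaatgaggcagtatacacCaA
*G6pd2*, chr5:61810002-61810091: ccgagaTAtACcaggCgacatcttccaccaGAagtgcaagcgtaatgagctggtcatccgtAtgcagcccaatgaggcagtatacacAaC
A stretch of 90 nt without a difference follows, because a read from within it matches both genes.
*G6pdx*, exon 7, chrX:74411967-74412056, and *G6pd2*, chr5:61809563-61809652: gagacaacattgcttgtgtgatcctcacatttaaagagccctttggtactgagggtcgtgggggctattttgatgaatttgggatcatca

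Such stretches were a small part of the *G6pdx* transcript. Of its windows of 50 nt, 199 of 2603 (7.65%) occurred exactly in *G6pd2*. For windows of 75 nt the share was 1.94%, for 100 nt it was 0.24%, and of 2503 windows of 150 nt none occurred in *G6pd2*. The length of the reads is not given in the sources used here, and sequencing errors and mismatches allowed by the aligner are not part of this count.

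*G6pd2* had few reads in every liver. WT livers had 0 to 4 reads each and 14 together, and LKO livers had 9 to 17 reads each and 80 together. In CPM the lowest, median and highest values were 0, 0.126 and 0.276 in WT and 0.387, 0.774 and 1.14 in LKO livers, so the groups did not overlap. The log2 fold change was 2.27 (standard error 0.448), or 4.82-fold with a 95% interval from 2.49 to 9.36. It is given as a description without a p-value, because the filter admitted *G6pd2* through the group where it is high. Its place past the threshold was lost with limma voom, with the replicate number as a block and in 7 of 12 fits with 1 liver left out.

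As a share of the reads of both genes, *G6pd2* took 0% to 4.21% in WT and 0.701% to 1.85% in LKO livers. The WT liver at 0 had 138 reads of both genes, and its exact 95% interval reached 2.64%. Summed over livers the share was 14 of 893 reads in WT (1.57%, exact binomial 95% interval 0.86% to 2.62%) and 80 of 6391 in LKO (1.25%, 0.994% to 1.56%). The share per liver averaged 1.94 ± 1.5% in WT and 1.30 ± 0.445% in LKO livers, a difference of −0.644 percentage points. This difference is given as a description without a p-value, because the WT shares rest on 0 to 4 *G6pd2* reads per liver. Both genes had more reads in LKO than in WT livers, and after the genotype means were subtracted the r of their log2 CPM was 0.14 over 12 livers. This r cannot show how reads were assigned. *G6pd2* had only 0 to 17 reads per liver, and its log2 value at 0 reads was set by the prior count. LKO replicate 2 had the most *G6pd2* reads of its group, 17, and the fewest *G6pdx* reads, 901, but also the smallest library, 15242214 reads. Scaled to library size it had 60.4 CPM of *G6pdx*, above the LKO median of 57.8 CPM, and 1.14 CPM of *G6pd2*, the highest value. Reads of *G6pd2* transcripts and *G6pdx* reads placed on the retrocopy cannot be told apart in the counts. Over the 12 livers together, *G6pd2* held 94 of the 7284 reads of both genes (1.29%, exact binomial 95% interval 1.04% to 1.58%), so counting them as *G6pdx* would move its level little.

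**Figure D3:**
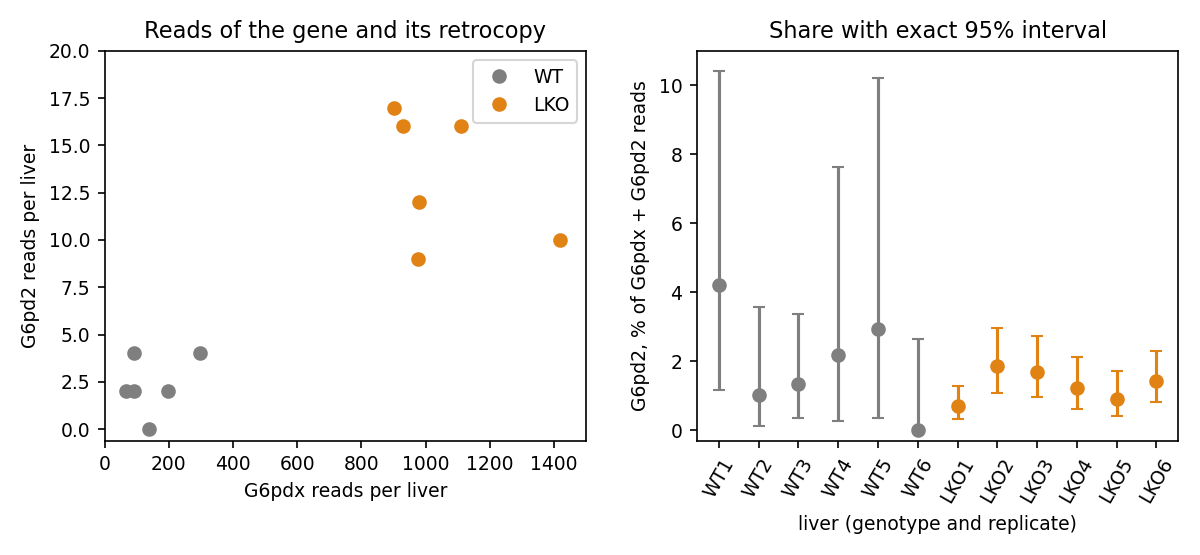
Left, reads counted on *G6pd2* (vertical axis) against reads counted on *G6pdx* (horizontal axis) in 6 WT (grey) and 6 LKO (orange) livers. Right, *G6pd2* reads as a percentage of the reads of both genes (vertical axis) for each liver (horizontal axis), with exact binomial 95% intervals as bars. The LKO livers have more reads of both genes, and the summed shares are 1.57% in WT and 1.25% in LKO livers.

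The neighbours of *G6pdx* were read in the same fit. *G6pdx* shares 418 nt of its exons (13.571% of their length) with *Ikbkg* on the opposite strand, which encodes NEMO, the regulatory subunit of the IκB kinase. *Ikbkg* averaged 80.9 ± 4.04 CPM in WT and 82.7 ± 7.56 CPM in LKO livers, with a log2 fold change of 0.03 (edgeR, adjusted p = 0.907). The strand setting of the counting is not given in the sources used here, so reads within the shared 418 nt cannot be assigned with certainty. Of 35 annotated genes in the table within 250000 nt of *G6pdx*, 15 were tested and edgeR, limma voom and DESeq2 each called 0 of them. Their log2 fold changes ranged from −0.27 for the pseudogene *Gm15361* to 0.25 for *Dnase1l1*, with a median of 0.05. At an unadjusted p under 0.05 there was 1, *Taz*, the tafazzin gene, with a log2 fold change of 0.14 (edgeR, adjusted p = 0.404). Because *G6pdx* was chosen for its difference, nothing is read from a comparison of these 15 fold changes with its own.

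The 250 nt upstream of the RefSeq start were read for the 10 genes (RefSeq, GRCm38.p6), all of which matched, with 13 windows in all. The G+C content was 61.2% for *G6pdx* and 30% for *G6pd2*, and the best local alignment of both windows was 15 nt, so the similarity of these genes did not extend upstream. The *G6pdx* window held 1 match to TGACNNNGC, the letters of the antioxidant response element, which is found in 10.2% of 32851 such windows. It is the only match of this motif among the 13 windows. The 30 nt around it are shown with the match in capitals, on the strand of *G6pdx*, where the motif reads on the opposite strand.
*G6pdx* upstream, chrX:74428918-74428947: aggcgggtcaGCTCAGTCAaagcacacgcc
The GENCODE annotation places these 30 nt within an extended exon 1. The *G6pdx* window also held 1 GC box (GGGCGG, in 32.7% of windows) and no match to the E-box CACGTG (6.02%) or to CCAAT (33.8%). None of the 13 windows held the E-box. Both strands were searched, and a match or its absence in such a window says nothing of the binding of a factor.

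The other genes of the oxidative arm had smaller fold changes than *G6pdx* and were not called. *Pgls* (chr8:71592176-71601092), the lactonase, had 26.8, 28.4 and 28.9 CPM as the lowest, median and highest values in WT and 25.4, 26.7 and 28.3 CPM in LKO livers. The ranges overlapped, and the log2 fold change was −0.08 (95% interval −0.19 to 0.03, edgeR, adjusted p = 0.609). *Pgls* shares 776 nt of exon with *Fam129c* on the same strand, which had 132 reads in the 12 livers.

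*Pgd* (chr4:149149991-149166771), the other NADPH producing enzyme of the arm, had 35.7, 42.5 and 56.6 CPM as the lowest, median and highest values in WT and 44.9, 53.8 and 91.0 CPM in LKO livers. LKO replicate 1 stood above the rest, and 3 of 6 LKO livers were above every WT liver. The log2 fold change was 0.38 (95% interval 0.02 to 0.74, edgeR, adjusted p = 0.392), so *Pgd* was not called. Without LKO replicate 1 the log2 fold change was 0.20.

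*H6pd* (chr4:149979475-150009023), the enzyme of the endoplasmic reticulum, had 454.5, 611.8 and 920.1 CPM as the lowest, median and highest values in WT and 465.8, 539.4 and 723.8 CPM in LKO livers. The LKO range lay within the WT range. Its log2 fold change was −0.24 (95% interval −0.57 to 0.09, edgeR, adjusted p = 0.575), opposite in sign to that of *G6pdx* and not past the threshold.

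In the non-oxidative arm no gene passed the threshold. *Tkt* (chr14:30548359-30574720) had 112.7, 127.5 and 152.9 CPM as the lowest, median and highest values in WT and 123.7, 134.9 and 144.4 CPM in LKO livers (log2 fold change 0.07, 95% interval −0.09 to 0.23, edgeR, adjusted p = 0.776). *Taldo1* (chr7:141392199-141402968) had 88.1, 93.2 and 101.2 CPM in WT and 86.9, 94.7 and 102.9 CPM in LKO livers (log2 fold change 0.02, 95% interval −0.11 to 0.14, edgeR, adjusted p = 0.942). For both genes the interval of the difference was narrow and held 0. *Rpia* (chr6:70765720-70792232), the isomerase, was the least abundant gene of this arm, with 3.09, 5.01 and 8.24 CPM in WT and 5.01, 5.68 and 7.77 CPM in LKO livers. Its log2 fold change of 0.10 had a wider 95% interval, from −0.34 to 0.55 (edgeR, adjusted p = 0.898).

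*Me1* and *Idh1* encode enzymes that make cytosolic NADPH outside the pathway. *Me1* (chr9:86581371-86695953) had 117.7, 187.3 and 360.4 CPM as the lowest, median and highest values in WT and 262.0, 306.9 and 343.3 CPM in LKO livers. Of the WT livers, 5 were below every LKO liver, whereas WT replicate 3 was above all of them. The means were 204.8 ± 84.8 CPM and 306.9 ± 26.7 CPM. The log2 fold change of 0.58 (standard error 0.200, 95% interval 0.16 to 1.01), or 1.5-fold, did not pass the threshold (edgeR, adjusted p = 0.249). Without WT replicate 3 the log2 fold change was 0.82 and *Me1* was called (edgeR, adjusted p = 0.00902), so 1 library decided this call. WT replicate 3 was also the WT liver with the highest *G6pdx*. *Idh1* (chr1:65158616-65186500) had 367.4, 426.5 and 527.2 CPM in WT and 360.2, 448.2 and 471.6 CPM in LKO livers (log2 fold change 0.02, 95% interval −0.18 to 0.22, edgeR, adjusted p = 0.966).

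To compare levels between genes, CPM were divided by the length of the merged exons in kb. In WT livers the order from the highest was *Idh1* (153.9 ± 20.8 CPM per kb), *H6pd* (126.7 ± 32.2), *Me1* (53.2 ± 22.1), *Taldo1* (43.3 ± 2.37), *Tkt* (17.5 ± 2.02), *Pgls* (7.50 ± 0.200), *Pgd* (6.92 ± 1.29), *G6pdx* (2.98 ± 1.78), *Rpia* (1.02 ± 0.385) and *G6pd2*. Neighbours in this order overlapped between livers except *Taldo1* above *Tkt*, *Tkt* above *Pgls* and *Rpia* above *G6pd2*. In LKO livers *G6pdx* stood at 18.3 ± 2.65 CPM per kb, at rank 6 instead of 8, in a range shared with *Tkt* (18.3 ± 1.11) above it and *Pgd* (9.00 ± 2.67) below it. With the length of 1 principal transcript per gene in place of the merged exons *G6pdx* was at rank 8 in both groups, so this step in rank depended on the lengths used.

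*G6pdx* was the smallest part of the level per kb summed over the 4 cytosolic genes that make NADPH, namely *G6pdx*, *Pgd*, *Me1* and *Idh1*, in WT livers. It took 1.31 ± 0.545% of that sum, with a range from 0.651% to 2.05%. In LKO livers it took 6.97 ± 1.05%, with a range from 5.47% to 8.66%. *Pgd* took 3.21 ± 0.271% and 3.39 ± 0.731%, *Me1* 23.8 ± 4.64% and 30.4 ± 1.60%, and *Idh1* 71.7 ± 5.06% and 59.3 ± 1.53%. *Idh1* was the largest part in every liver. The level of *G6pdx* per that of *Pgd*, the enzyme that takes up its product after the lactonase, was 0.413 (0.192 to 0.698) in WT and 2.11 (1.52 to 2.74) in LKO livers. With principal transcripts these ratios were 0.165 and 0.843, thus higher in LKO livers with either length, while the side of 1 on which the ratio fell depended on the length. These shares describe mRNA per length and not enzyme activity.

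**Figure D4:**
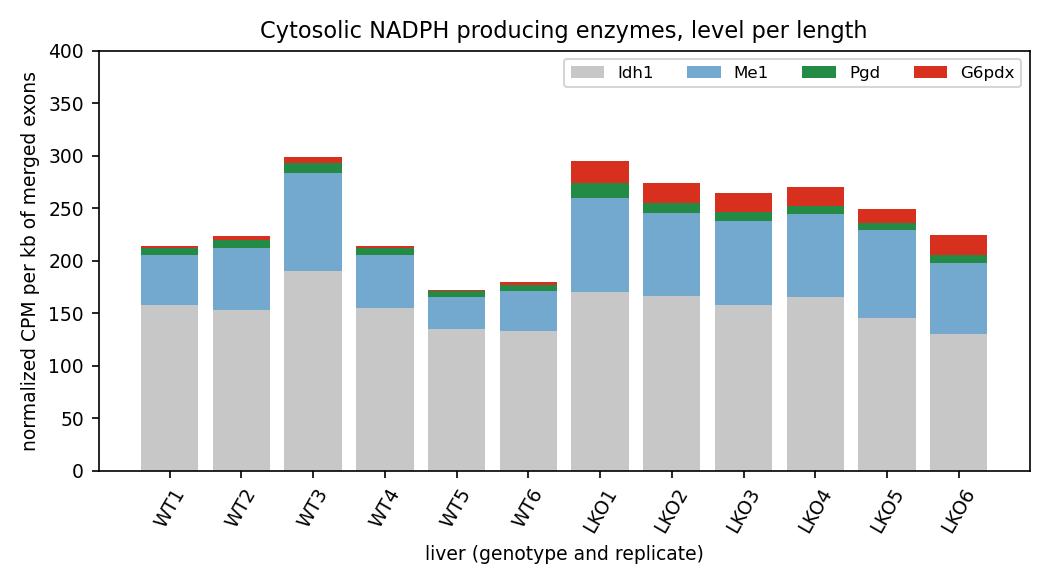
Normalised CPM per kb of merged exons (vertical axis, from 0) of *Idh1*, *Me1*, *Pgd* and *G6pdx*, stacked for each of 6 WT and 6 LKO livers (horizontal axis). *G6pdx* takes 0.651% to 2.05% of the bar in WT and 5.47% to 8.66% in LKO livers, and *Idh1* is the largest part of each bar.

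Livers of a genotype also differed among themselves in *G6pdx*. The coefficient of variation of *G6pdx* CPM was 59.7% in WT and 14.5% in LKO livers, and that of *Me1* was 41.4% and 8.7%. The distance of log2 CPM from the group median averaged 0.645 in WT and 0.154 in LKO livers for *G6pdx* and 0.381 and 0.0812 for *Me1*. These spreads were picked out after the values were seen and are given without a test. *Pgls* and *Taldo1* varied little in either group, with coefficients of variation from 2.67% to 5.86%.

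Within WT livers *G6pdx* and *Me1* had a Pearson r of 0.891 (exact permutation p = 0.0278, n = 6) and a Spearman rho of 0.771 (exact permutation p = 0.103). Among the 12 relations computed, of *G6pdx* with *Srebf1*, *Fasn*, *Me1*, *Pgd*, *Tkt* and the mean of the Kupffer cell markers in each genotype, none passed Benjamini-Hochberg adjustment, the lowest adjusted exact p being 0.334. Without WT replicates 3 and 5, the livers farthest from the median, r was 0.295, so the relation rested on those livers. Within LKO livers r with *Me1* was −0.0801 (exact permutation p = 0.867, n = 6), rho was 0.0286, and r was −0.519 without replicates 1 and 5. With *Srebf1*, which encodes the lipogenic transcription factor SREBP1, r was −0.591 in WT livers (exact permutation p = 0.222, n = 6), rho was −0.543 (exact permutation p = 0.297), and r was −0.477 without replicates 3 and 5. In LKO livers r was −0.287 (exact permutation p = 0.618, n = 6), rho was −0.771 (exact permutation p = 0.103), and r was −0.917 without replicates 1 and 5, the livers farthest from the median.

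**Figure D5:**
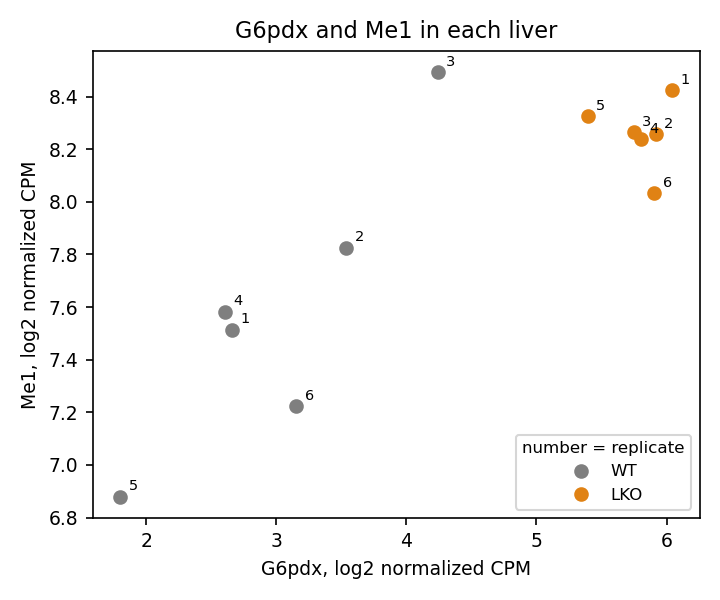
Log2 normalised CPM of *Me1* (vertical axis) against that of *G6pdx* (horizontal axis) in 6 WT (grey) and 6 LKO (orange) livers, with the replicate number beside each point. WT replicate 3 is highest and WT replicate 5 lowest in both genes among the WT livers, and the LKO livers lie together at the upper right.

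Over all 12 livers and 12775 genes with a mean of at least 1 CPM, the genes whose log2 CPM were most like those of *G6pdx* were *Cd9* (r = 0.965), *Gm28548* (0.959), *Nop10* (0.948), *Samm50* (0.941) and *Galc* (0.935). These r values hold the difference between the genotypes, which these genes share by selection. After the genotype means were subtracted, the most like were *Llph* (r = 0.922), *Rtl8b* (0.887), *Pank1* (0.879), *Samm50* (0.879) and *Scd1* (0.876), the last encoding stearoyl-CoA desaturase. *Me1* was the highest of the other pathway and NADPH genes by this measure, at rank 10 with r = 0.834, followed by *Tkt* with 0.62, and *Pgls* (0.00635) and *H6pd* (−0.0397) were near 0. The SD of *G6pdx* in log2 CPM was 0.844 in WT and 0.224 in LKO livers, so these deviations came mostly from WT livers. Within LKO livers alone r with *Me1* was −0.0801. The points share library and depth, and no p-value is attached to them.

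The wider pathway was read from gene lists, whose genes were counted in the same fit. Over all genes tested, edgeR called 0.428%, limma voom 0.485% and DESeq2 2.17% (of the 16141 genes to which it gave an adjusted p), and 11.7% had an unadjusted p under 0.05 by edgeR. The counts below are set beside these shares as a description, because the lists were chosen with earlier results of these data known. Of 12 further genes of the pentose phosphate pathway and of ribose phosphate use, 10 were tested and 0 were called by edgeR, limma voom or DESeq2, with 1 at an unadjusted p under 0.05. This was *Prps2*, a phosphoribosyl pyrophosphate synthetase, with a log2 fold change of −0.34 (edgeR, adjusted p = 0.238). *Prpsap2* (−0.12) and *Rpe* (−0.09), the epimerase of the non-oxidative arm, followed. The median log2 fold change of the 10 genes was −0.03, against 0.000165 over all genes tested, and *Tktl1* and *Tktl2* had at most 1 read in a liver.

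Of 12 tested genes that make NADPH by other routes or phosphorylate NAD, 0 were called by any of these tools and 2 had an unadjusted p under 0.05 by edgeR, with a median log2 fold change of 0.05. The lowest p-values belonged to *Aldh1l1*, the cytosolic 10-formyltetrahydrofolate dehydrogenase, with a log2 fold change of −0.28 (edgeR, adjusted p = 0.273), the mitochondrial NAD kinase *Nadk2* (−0.21) and *Mthfd1* (−0.16). Of 25 genes whose enzymes use NADPH, edgeR and limma voom called 0 and DESeq2 called 1 (against 2.17% of all genes), with 5 at an unadjusted p under 0.05 by edgeR (against 11.7%). *Blvrb*, a biliverdin reductase, had a log2 fold change of 0.23 (edgeR, adjusted p = 0.143), *Msmo1* of cholesterol synthesis −0.69 (edgeR, adjusted p = 0.209) and *Cbr1*, a carbonyl reductase, 0.34 (edgeR, adjusted p = 0.234). The median over the 25 genes was 0.06.

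Of 15 genes that supply or use glucose 6-phosphate, from which the pathway starts, 6 had a log2 fold change above 0, with a median of −0.12. EdgeR, limma voom and DESeq2 called 0 of them, and 1 had an unadjusted p under 0.05 by edgeR. This was *Fbp1*, the gluconeogenic fructose bisphosphatase, with 857.9 ± 82.3 CPM in WT and 678.2 ± 109.6 CPM in LKO livers (log2 fold change −0.34, edgeR, adjusted p = 0.215). Every LKO liver was below every WT liver for *Fbp1*, which held for 0.554% of all genes tested. *Pygl*, liver glycogen phosphorylase, had a log2 fold change of −0.17 and *G6pc*, glucose 6-phosphatase, of −0.41, with adjusted p-values in edgeR of 0.431 and 0.483.

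Of 18 genes of fatty acid synthesis known as targets of SREBP1 or ChREBP, or encoding these factors, 16 had a log2 fold change above 0, with a median of 0.29. Only *Pnpla3*, which encodes a lipid droplet protein, was called by edgeR. It rose from 1.18 ± 0.892 CPM in WT to 4.93 ± 2.15 CPM in LKO livers (log2 fold change 2.06, edgeR, adjusted p = 0.0387). At an unadjusted p under 0.05 there were 7 of 18 (against 11.7% of all genes), limma voom called 1 (against 0.485%) and DESeq2 called 4 (against 2.17%). *Scd1* had a log2 fold change of 0.64 (edgeR, adjusted p = 0.135) and *Acacb*, an acetyl-CoA carboxylase, of 0.63 (edgeR, adjusted p = 0.139). *Srebf1* itself had 0.33 and *Fasn*, fatty acid synthase, 0.26, with adjusted p-values in edgeR of 0.524 and 0.685. Thus *G6pdx*, with 2.62, and *Pnpla3* had log2 fold changes above 2, and the other 17 listed genes were at 0.64 or below.

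Of 19 tested genes of the NRF2 response, the transcription factor that binds the antioxidant response element, 14 had a log2 fold change above 0, with a median of 0.15. *Gstm1*, a glutathione S-transferase, was called by edgeR and rose from 718.6 ± 53.8 CPM in WT to 974.2 ± 54.6 CPM in LKO livers (log2 fold change 0.44, edgeR, adjusted p = 0.00725). It has close paralogues, so its read assignment is uncertain. *Gsta1* (0.92) and *Srxn1* (0.80) had adjusted p-values in edgeR of 0.32 and 0.393, and *Nqo1*, also among the genes that use NADPH, had a log2 fold change of 0.45 (edgeR, adjusted p = 0.419). *Gsta1* rested on 1 to 11 reads per liver. For *Srxn1* only 1 LKO liver, at 175.4 CPM, was above every WT liver, and the medians were 35.1 CPM in WT and 43.0 CPM in LKO livers. *Nfe2l2*, the gene of NRF2, had −0.02. Limma voom (0.485% of all genes) and DESeq2 (2.17%) each called 1 gene of this list, and edgeR had 4 of 19 at an unadjusted p under 0.05 (11.7%).

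Markers of other liver cells were read beside these results. All 12 Kupffer cell markers lay between 0.29 and 0.52 in log2 fold change, among them *Clec4f* with 0.39 (edgeR, adjusted p = 0.114) and *Cd5l* with 0.49 (edgeR, adjusted p = 0.142). By edgeR 10 of these 12 had an unadjusted p under 0.05 (against 11.7% of all genes). DESeq2 called 3 of them (against 2.17%), and edgeR and limma voom called 0. The summed level of 6 B cell markers ranged from 0.967 to 2.20 CPM in WT and from 2.09 to 3.93 CPM in LKO livers. That of 5 neutrophil markers ranged from 0.105 to 0.622 CPM and from 0.774 to 4.00 CPM, with *Ly6g*, *Mpo* and *Elane* at 3 reads or fewer in every liver. *S100a8* and *S100a9* did not overlap between the groups, where 0.748% of all genes tested had every LKO liver above every WT liver. In WT livers *S100a8* had 0 to 2 reads and *S100a9* 1 to 5. *S100a8* thus passed the filter through the LKO livers alone, and nothing is read from this lack of overlap. The sums of the Kupffer cell, B cell, endothelial, stellate, cholangiocyte and erythroid markers overlapped between the groups. Of the 12 hepatocyte markers 10 had a log2 fold change below 0, with a median of −0.10 and 3 at an unadjusted p under 0.05 by edgeR, and their summed level ranged from 115500 to 137100 CPM in WT and from 106000 to 119400 CPM in LKO livers. Of the 57 marker genes tested edgeR called 0, with 24 at an unadjusted p under 0.05 (against 11.7% of all genes), limma voom called 0 and DESeq2 called 6 (against 2.17%). The part of these markers in the differences of *G6pdx* and *Pnpla3* was not tested. Within WT livers the mean of the Kupffer cell markers had an r with *G6pdx* of 0.0502 (exact permutation p = 0.933, n = 6) and a rho of 0.0857 (exact permutation p = 0.919), and r was 0.896 without replicates 3 and 5. Within LKO livers r was 0.092 (exact permutation p = 0.811, n = 6) and rho 0.143 (exact permutation p = 0.803), and r was −0.604 without replicates 1 and 5, so these values depended on few livers. In whole liver, a change in the number of cells of a type and a change in RNA per cell cannot be told apart.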

How the data were processed

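Liver mRNA of 12 male mice (6 WT, 6 LKO, grouped by the genotype in the labels) was sequenced with 1 library per mouse. Libraries were made with the KAPA mRNA HyperPrep kit and run on a HiSeq4000. Per the submitters' processing notes, the authors used FastQC 0.11.15, Trimmomatic 0.36, HISAT2 2.1.0 and HTSeq 0.6.1 with Ensembl 93 (GRCm38). What the authors deposited are raw read counts for each gene, neither normalized nor filtered. Strand setting and overlap mode are not given in the sources used here.

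A gene was tested where 6 or more livers each had over 2 reads of it. The test was the quasi-likelihood one in edgeR 4.0.16 (R 4.3.3, TMM, genotype only), with Benjamini-Hochberg adjustment over all 17509 genes and a threshold of 0.05. Log2 CPM used a prior count of 0.5. Each standard error was derived from the F statistic of its fold change. Coordinates and lengths were from GENCODE M21, which held 54165 of 54232 identifiers, and upstream windows from RefSeq. The script was tested on simulated data. Alternatives were RLE and upper-quartile scaling, library sizes without the 20 most abundant genes, no filter, 10 counts in every liver, filterByExpr, limma 3.58.1 voom, DESeq2 1.42.0, a replicate block and each liver left out.

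Members and lists were chosen with earlier results of these data known. Named were the 10 genes, the tested genes within 250000 nt of *G6pdx*, of each pathway list the called genes or the 3 of lowest p, the 5 genes most like *G6pdx* by either measure, *Marchf6*, and the 2 most abundant and any called markers. Most neighbours and markers are given by range or sum alone. *Fasn*, *Srebf1*, *Nqo1*, *Nfe2l2*, *Ly6g*, *Mpo* and *Elane* were named after their values were seen. Some items are not reported here.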

Additional observations from a re-analysis of the deposited data

Results flagged for a closer look

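Of 20 groups of 6 livers (10 genes in each genotype) 2 had a liver set apart from the others (Dixon's ratio), where chance gives about 1. *G6pd2* in WT had its lowest liver in replicate 6, at 0 reads, with a gap of 0.65 of the range on the log2 scale. The log2 value at 0 reads was set by the prior count, so nothing is read from this gap. *Pgls* in WT also had its lowest liver in replicate 6, at 26.8 CPM, with a gap of 0.678 of the range.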

How the results depend on the processing

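The log2 fold change of *G6pdx* ranged from 2.44 to 2.96 with 1 liver left out and from 2.61 to 2.82 under the 9 other settings. *G6pd2* ranged from 2.03 to 2.51 with 1 liver left out, and was 2.26 with limma voom and 2.27 with the replicate block, where it was past the threshold in neither. It was not tested with at least 10 counts in every liver or with filterByExpr, and no test of it is read, since it passed the filter through the LKO livers alone. The number of the 10 genes called was thus 1 rather than 2 under those 4 settings, and 1 to 3 with 1 liver left out. *Me1* ranged from 0.47 to 0.82 with 1 liver left out and was called only without WT replicate 3, while its adjusted p was 0.124 to 0.249 under the other settings. *Pgd* ranged from 0.20 to 0.46, *H6pd* from −0.33 to −0.13, *Tkt* from 0.04 to 0.13 and *Pgls* from −0.09 to −0.06. The sign of small differences turned for *Taldo1* (−0.0037 without LKO replicate 1, up to 0.0459), *Rpia* (−0.0147 without WT replicate 6, up to 0.2578) and *Idh1* (−0.0164, −0.0202 and −0.0072 without WT replicate 5, WT replicate 6 and LKO replicate 1, up to 0.0877).

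Over all genes 75 were called (48 higher), 114 without a filter (79 higher), 351 with DESeq2 (181 higher), 97 with the replicate block, 132 without WT replicate 3 and 38 without WT replicate 5; the cause was not tested. Same-numbered livers correlated between −0.176 and 0.288 in their deviations from the group means, so the numbers were not taken as pairs, and the block changed no other call among the 10 genes. At 0 to 17 reads per liver, depth limits what can be said of *G6pd2*.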
